A study of Caenorhabditis elegans with 30 samples.

Results

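Untreated *old-1(ok1273)* animals were compared with untreated wild-type N2 animals. The members are 6 of the 30 libraries of the series, replicates A, B and C of each group, taken by their labels: *Caenorhabditis elegans* collected at the fourth larval stage (L4), grown at 20 °C and given no extract. RNA came from whole animals that had been synchronised by bleaching. The allele *ok1273* is a deletion in *old-1*, and the sample labels give neither its strain name nor whether the animals also carried the *chil-27p::GFP* reporter *icbIs5*, with which the study's strain list also gives the allele. The extract libraries used beside them are the same 2 genotypes, 3 libraries each, given an extract of the oomycete *Myzocytiopsis humicola*. Of the other libraries of the series, some values are set beside them for *flor-1(icb93)* animals, with and without extract, *old-1p::old-1* animals (*icbEx308*, an extrachromosomal array that also carries *bus-1p::GFP*), siblings of these without the array (labelled N2(*icbIs5*)), *dpy-7p::old-1* animals (*icbEX359*, driven by an epidermal promoter) and a hygromycin resistance control (*icbEx360*), each untreated unless said. The study elsewhere places *icbEx308* in *old-1(ok1273)*, so whether the *old-1p::old-1* animals and the siblings carried that allele is not settled by their labels. The labels do not say that replicates were separate cultures, so p-values measure the spread between these libraries. With whole animals, fewer cells of a type and less RNA per cell cannot be told apart.

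OLD-1 is a receptor tyrosine kinase of the nematode KIN-16 family, found in the epidermis, the tissue that lies beneath the cuticle. Receptor tyrosine kinases carry a signal from outside the cell by phosphorylating tyrosines on proteins inside it. The oomycete recognition response (ORR) is the set of genes, among them the chitinase-like *chil* genes, that *C. elegans* switches on when it senses an oomycete. Animals leave the fourth larval stage through a last molt, in which the epidermis makes the adult cuticle while the intestine starts to make yolk and the germline turns from sperm to oocytes. The untreated comparison sets animals with the *ok1273* deletion beside N2 where no oomycete material is present. A single mutant allele was compared, so loss of *old-1* cannot be told apart from other differences between the strains.

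Each of the 6 libraries held 19372956 to 27688255 estimated counts. The N2 libraries differed in yolk transcripts, which the intestine makes as hermaphrodites become adult. The mean log2 CPM (counts scaled to a common library size) of the yolk protein genes *vit-1* to *vit-6* was -0.68 in N2 replicate A, 7.18 in B and 8.10 in C. In *old-1(ok1273)* it was -1.73, -1.61 and -0.90 in A, B and C, close to N2 replicate A and to the 6 extract libraries, which lay between -1.19 and -0.16. All 3 mutant values lay below all 3 of N2, and the exact two-sided permutation test gave p = 0.1, the smallest that 3 against 3 can give. *vit-2* had 4.12, 332 and 687 CPM in N2 replicates A, B and C and 1.05, 1.35 and 1.43 CPM in *old-1(ok1273)*. The correlation of log2 CPM across genes, which are not independent replicates, was 0.979 between N2 replicates B and C and 0.925 and 0.907 between these and replicate A. Replicate A correlated with the *old-1(ok1273)* libraries at 0.971 to 0.972. N2 replicates B and C therefore stood apart, and counts of called genes are also given without them where they differ.

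**Figure D1:**
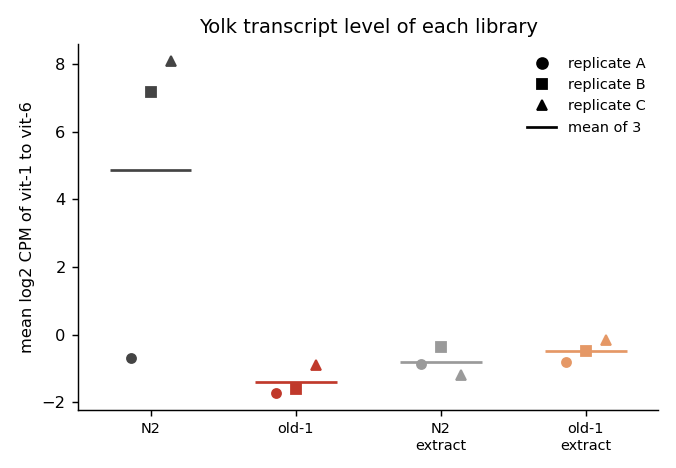
Mean log2 CPM of *vit-1* to *vit-6* (vertical axis) in each untreated and extract library of N2 and *old-1(ok1273)*, with symbols for replicates and a line for the mean of 3. N2 replicates B and C sit at 7.18 and 8.10, and the other 10 libraries between -1.73 and -0.16.

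The untreated *old-1(ok1273)* libraries stood apart in a second way, by transcript length. Genes were ranked by the length of their transcripts and split into 5 classes of equal size. The level of the shortest class (42 to 728 bases), relative to the mean of the 12 libraries, exceeded that of the longest class (2084 to 39690 bases) by 0.315, 0.322 and 0.305 on the log2 scale in *old-1(ok1273)* replicates A, B and C. In the 3 untreated N2 libraries this difference was -0.223, -0.073 and -0.006, and in the 6 extract libraries of both genotypes it lay between -0.229 and -0.046. The median log2 fold change of *old-1(ok1273)* against N2 accordingly went from 0.23 in the shortest class to -0.245 in the longest, and from 0.377 to -0.282 without N2 replicates B and C. With extract it went from 0.048 to -0.03. Its part in single results was not tested, and the untreated fit was repeated with a correction for length that was added after the pattern was seen.

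**Figure D2:**
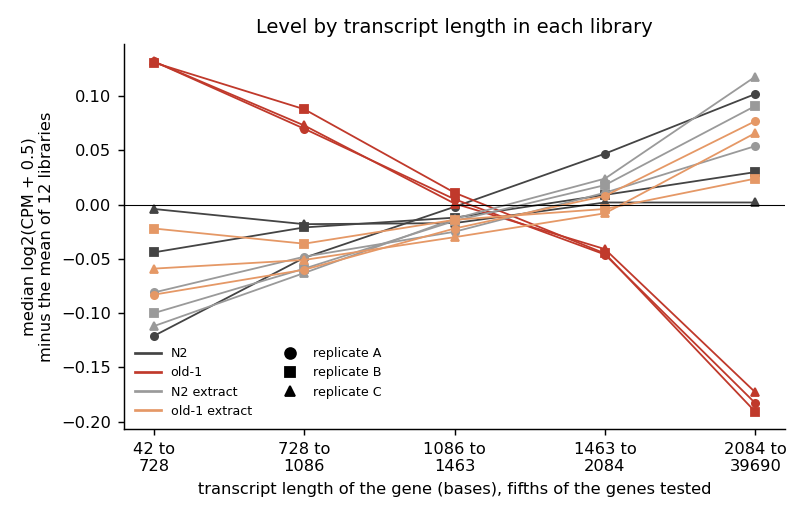
Median log2(CPM + 0.5) of the genes in each length class, minus the mean of the 12 libraries (vertical axis), against the transcript length of the class in bases. The 3 untreated *old-1(ok1273)* lines fall from left to right, with 0.315, 0.322 and 0.305 between the shortest and the longest class, and those of the other 9 libraries do not.

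In all, 6577 of 16850 genes tested were called (39.0%), 2649 higher in *old-1(ok1273)* (15.7%) and 3928 lower (23.3%). These shares are the background for the list counts of the untreated fit below. A gene was called at p under 0.01 and a Benjamini-Hochberg adjusted p under 0.1 in edgeR's quasi-likelihood test, fitted to the 18 libraries of the extract experiment, and every adjusted p below comes from this test. The 18 libraries share one estimate of the spread, and with only the 6 libraries compared 3562 genes were called. On log2(TPM + 1), for which counts were divided by effective length and rescaled, limma's split was 1260 higher and 4317 lower, with the median of all genes at -0.16. Without N2 replicates B and C, 4667 genes were called (26.8%), 2072 higher and 2595 lower. In that fit N2 has 1 library, which is assumed to vary like the other groups. Of the 3928 genes called lower, 1963 were called lower again without B and C and 305 were called higher. Of the 2649 called higher, 1202 were called again and none was called lower. With both the length correction and without B and C, 3603 genes were called, 2365 higher and 1238 lower (7.11%).

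The extract libraries hold the same genotype difference in animals of uniformly low yolk level. There, 2890 genes were called (17.2%), 1048 higher (6.22%) and 1842 lower (10.9%) in *old-1(ok1273)*. These shares are the background for the list counts with extract below. Of the genes called higher in the untreated comparison, 336 were also called higher with extract, 12.7% of the untreated and 32.1% of the extract list. Of those called lower, 510 were shared, 13% of the untreated and 27.7% of the extract list. A further 308 genes called higher and 208 called lower in untreated animals were called in the opposite direction with extract. Requiring the same direction in the untreated comparison, with the yolk level as a covariate, without N2 replicates B and C and with extract, and no overlap between the untreated groups, left 558 genes (3.31%), 202 higher and 356 lower (2.11%). Both length-corrected fits also called 352 of these (2.09%), 159 higher and 193 lower. This requirement was chosen after the values were seen, and the 558 genes are called stable below.

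*old-1* itself was low in both genotypes. It had 3.12, 1.65 and 1.92 CPM in N2 replicates A, B and C and 0.913, 1.16 and 0.806 CPM in *old-1(ok1273)*, so the groups did not overlap but the mutant libraries were not empty (log2 fold change -1.22, standard error 0.28, adjusted p = 0.00284). The raw estimated counts were 81, 30 and 49 against 20, 31 and 18. Without N2 replicates B and C the log2 fold change was -1.69, and with extract it was -1.88. The counts are for the whole transcript, and which part of it the remaining reads cover is not in the files. Untreated *flor-1(icb93)* animals, which carry another mutation, had 1.29 ± 0.162 CPM of *old-1* (scaled to library total, SD, n = 3), against 0.920 ± 0.182 in *old-1(ok1273)*, and the libraries of the 2 groups overlapped.

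*old-1* lies on chromosome II at 9866464 to 9868747 (WBcel235, minus strand), and its end overlaps that of *chil-1* (9862309 to 9866478, same strand). Of 27 genes tested within 50 kb of *old-1*, *old-1* included, 6 were called (22.2%, beside 39.0% of all genes). *chil-1* and *chil-3* were higher, and *ZK938.1*, *algn-8* and *vgln-1* were lower. *chil-1* had 2.39, 0.385 and 0.707 CPM in N2 and 3.61, 3.11 and 3.94 CPM in *old-1(ok1273)* (log2 fold change 1.56, standard error 0.40, adjusted p = 0.00605), with no overlap. Its log2 fold change was 0.56 and did not pass without N2 replicates B and C. *chil-3* had 0.77, 0.385 and 0.51 against 1.37, 1.65 and 1.3 CPM (log2 fold change 1.34, standard error 0.30, adjusted p = 0.00251) and did not pass without B and C either, at 0.90. *ZK938.1* followed the yolk level, at 1.04, 11.8 and 18.4 CPM in N2 and 0.822, 1.76 and 1.21 CPM in *old-1(ok1273)*, and its log2 fold change of -3.01 turned to 0.31 without B and C. *algn-8*, which encodes a glucosyltransferase of N-glycan assembly, had 24, 22.5 and 22 against 16.8, 15.6 and 16.8 CPM (log2 fold change -0.47, standard error 0.08, adjusted p = 0.000259). It was lower also without B and C, at -0.55, but higher with extract, at 0.26.

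In the KIN-16 family, *kin-15* was the 1 gene besides *old-1* to be called. *flor-1*, which encodes the pseudokinase the study pairs with OLD-1, had 48.1, 34.6 and 28.5 CPM in N2 and 42.8, 41.2 and 39.3 CPM in *old-1(ok1273)*, with overlap (log2 fold change 0.15, standard error 0.16, adjusted p = 0.481). *vab-3*, the *C. elegans* PAX6 gene, had 20.1, 14.5 and 14.8 against 18.4, 19 and 19.4 CPM and did not pass either. *kin-15*, another receptor kinase gene of the family, was higher, at 15.4, 16.6 and 16.2 against 11.13, 6.22 and 10.9 CPM (log2 fold change 0.76, standard error 0.19, adjusted p = 0.00557), a call that did not pass without N2 replicates B and C. Its neighbour in name *kin-16* was at 13.6, 9.08 and 10.168 CPM in N2 and 12.4, 14.3 and 14.7 in *old-1(ok1273)*, with overlap. *old-2* and *R09D1.13* had no counts in any of the 6 libraries, and *R09D1.12* stayed between 0.308 and 0.589 CPM. Over the 7 members, all tested, the count was 1 higher and 1 lower, with a median log2 fold change of 0.00.

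Summed over the list, the ORR genes of both untreated genotypes were far below their level in N2 with extract. The list is the study's own selection of 50 genes, chosen partly on these samples, so its direction with extract is not independent evidence. All 50 passed the filter on low counts, which the N2 extract libraries alone could satisfy. Their summed level was 54.6, 49.9 and 55.2 CPM in N2 and 64.3, 63.3 and 62.9 CPM in *old-1(ok1273)*, against 3817 to 4153 CPM in N2 with extract. In *old-1(ok1273)* with extract it was 62.1, 63.8 and 61.2 CPM, near the untreated level. Of the 50, 6 were called higher (12%, beside 15.7% of all genes) and 2 lower (4%, beside 23.3%), with a median log2 fold change of 0.00. *ddn-1* had 3.08, 2.04 and 2.63 CPM in N2 and 2.56, 2.74 and 2.55 CPM in *old-1(ok1273)*. *chil-27*, the gene behind the study's reporter, had at most 0.11 CPM in any of the 6 libraries, and *pals-28* had no counts. *pals-5*, a gene of the intracellular pathogen response, had no counts in N2 and at most 0.0375 CPM in *old-1(ok1273)*. *chil-18* was at 0.231, 0.11 and 0.0393 CPM in N2 and 0.183, 0.45 and 0.358 CPM in the mutant, with overlap, and did not pass the call.

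Of the 8 ORR genes called, 7 stayed under 4 CPM, and *kin-15* is given above. Higher in *old-1(ok1273)* were *chil-1*, *chil-3*, *kin-15*, *pals-1*, *K02E7.10* and *T20D4.7*. *pals-1* had 2.19, 1.84 and 1.7 CPM against 0.501, 0.991 and 1.14 in N2 (log2 fold change 1.1, standard error 0.29, adjusted p = 0.00578), and was called without N2 replicates B and C, at 1.91. *K02E7.10* had 1.78, 2.44 and 2.1 against 1.54, 1.65 and 1.02 CPM, and *T20D4.7* had 1.73, 0.787 and 1.48 against 0.847, 0.66 and 0.667 CPM, with overlap. Neither passed without B and C. Lower were *F55G1.7*, at 0.593, 0.525 and 0.358 against 1.39, 0.826 and 0.903 CPM (log2 fold change -1.09, standard error 0.24, adjusted p = 0.00221), and *clec-203*, a C-type lectin gene with 0.077, 0.165 and 0.196 CPM in N2 and no counts in *old-1(ok1273)*. *F55G1.7* passed the rule for stable genes, but its call with extract is not independent, as the list was chosen partly on these samples. *clec-203* is too low for a fold.

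In the wider families, 2 of 24 tested *chil* genes were called higher and 2 lower, beside 15.7% and 23.3% of all genes. *chil-10* was the most abundant of those named here, with 36.1, 33.7 and 33.3 CPM in N2 and 26.3, 26.6 and 23.3 CPM in *old-1(ok1273)* (log2 fold change -0.43, standard error 0.07, adjusted p = 0.000242), and stable. *chil-14*, called lower, followed the yolk level at 0.154, 1.38 and 1.41 CPM in N2 against 0.365, 0.3 and 0.179. Of 34 tested *pals* genes, *pals-1* and *pals-6* were called higher and *pals-3* and *pals-4* lower. *pals-6* had 2.66, 1.16 and 1.41 CPM in N2 and 3.38, 4.54 and 3.49 in the mutant, whereas *pals-3* and *pals-4* stayed under 0.4 CPM in all 6 libraries. Of 8 other intracellular pathogen response genes, *skr-3*, a Skp1-related gene, was called higher at 84, 85.6 and 81.6 against 73.5, 61.9 and 68.4 CPM, and *F26F2.1* lower at 0.32, 0.187 and 0.269 against 1.04, 0.826 and 0.432 CPM (log2 fold change -1.56, standard error 0.35, adjusted p = 0.00249).

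A few genes had no counts at all in the mutant. With at least 10 counts required in each N2 library, 6 genes had counts in N2 and none in the 3 *old-1(ok1273)* libraries, and none was the reverse. *C56A3.5* (chromosome V, 13551967 to 13553373) had 719, 550 and 832 counts in N2 and was at least 705-fold lower in *old-1(ok1273)*, with 3 counts summed over the 3 mutant libraries taken as the least detectable. Its neighbour *C56A3.4* (chromosome V, 13550516 to 13551754) had 209, 147 and 211 counts in N2 and was at least 190-fold lower. *Y102A5C.36* (chromosome V, 16926922 to 16927445) had 128, 101 and 132 counts in N2 and was at least 121-fold lower. All 3 genes also had 0 counts in the *old-1(ok1273)* extract libraries, and 2058, 1027 and 434 counts over the 3 N2 extract libraries. They also had 0 counts in the 3 *old-1p::old-1* libraries and in their 3 siblings without the array. In *flor-1(icb93)*, *dpy-7p::old-1* and hygromycin control animals they were present, *C56A3.5* at means of 21.3 to 44.5 CPM.

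The other 3 genes without counts differed in what the remaining libraries held. *str-46* (chromosome V, 2898297 to 2899967), which encodes a seven-transmembrane chemoreceptor of the *str* family, had 91, 41 and 63 counts in untreated N2 and 184 over the N2 extract libraries. The 8 groups not labelled plain N2 had between 0 and 5 counts each over their 3 libraries, groups without the *old-1* allele included. It overlaps *pals-32* on the opposite strand. *coq-8*, needed for ubiquinone synthesis, had 563, 83 and 261 counts in untreated N2 but 0, 0 and 38 in N2 with extract and 0, 0 and 99 in *old-1(ok1273)* with extract. *fbxa-78*, an F-box gene overlapping *fbxa-208*, had 227 counts over untreated N2 and 0 over N2 with extract. The zeros of *coq-8* and *fbxa-78* thus also occurred in N2. kallisto divides reads between transcripts that share sequence, and its part in them was not tested. With a minimum of 5 counts there were 7 genes without counts in *old-1(ok1273)* and 2 without counts in N2, and with 20 there were 6 and 0.

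**Figure D3:**
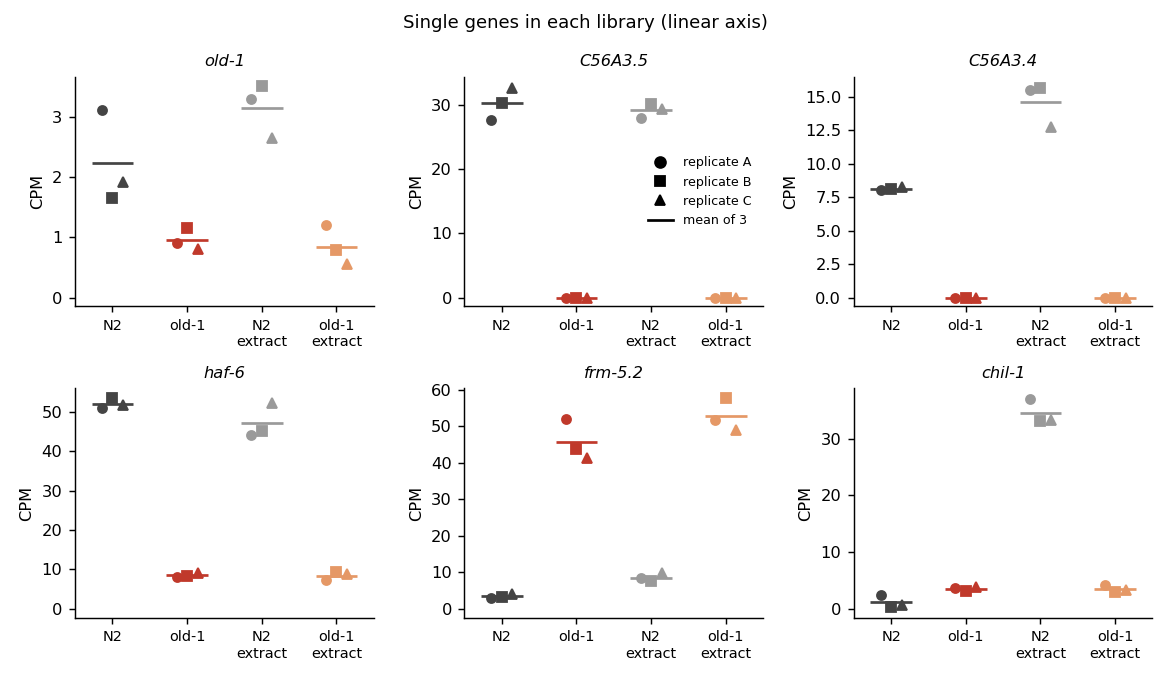
CPM (vertical axes, linear) of 6 genes in each library of untreated and extract-treated N2 and *old-1(ok1273)*, with symbols for replicates and a line for the mean of 3. *C56A3.5* and *C56A3.4* are at 0 in all 6 mutant libraries, *haf-6* is lower and *frm-5.2* higher in the mutant with and without extract, and *chil-1* is highest in N2 with extract.

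Several large differences were seen against each N2 library. *frm-5.2*, which encodes a FERM-domain protein, lies at the left end of chromosome IV (641 to 15416) and overlaps *Y38C1AB.5* on the opposite strand. It had 3.08, 3.14 and 4.2 CPM in N2 and 51.9, 43.9 and 41.2 CPM in *old-1(ok1273)* (log2 fold change 3.71, standard error 0.21, adjusted p = 1.22e-08), and with extract 8.34, 7.59 and 9.76 against 51.7, 57.6 and 48.8 CPM. It was also high in *old-1p::old-1* animals and their siblings, at means of 34.8 and 40.5 CPM scaled to library total, and at 5.35 to 8.83 CPM in the *flor-1(icb93)*, *dpy-7p::old-1* and hygromycin control groups.

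The next genes were chosen after their values were seen. *haf-6* (chromosome I, 1162880 to 1175809), which encodes a half-molecule ABC transporter, had 50.9, 53.6 and 51.6 CPM in N2 and 8.17, 8.32 and 9 CPM in *old-1(ok1273)* (log2 fold change -2.61, standard error 0.09, adjusted p = 3.65e-11). With extract it had 44.1, 45.1 and 52.3 against 7.37, 9.25 and 8.74 CPM. The other 6 groups of the series had group means of 32.4 to 48.0 CPM, above those of the 6 *old-1(ok1273)* libraries. *srw-85*, a chemoreceptor gene on chromosome V, had 32.1, 16.3 and 9.7 CPM in N2 and 0.502, 1.01 and 0.895 CPM in *old-1(ok1273)* (log2 fold change -4.57, standard error 0.39, adjusted p = 6.09e-07). *M199.2* on chromosome IV had 6.7, 4.62 and 5.26 against 0.457, 0.075 and 0.179 CPM (log2 fold change -4.57, standard error 0.41, adjusted p = 1.05e-06). *asp-12*, an aspartyl protease gene, had 157, 104 and 82.5 against 37.4, 40.9 and 38.8 CPM, and *acdh-6*, an acyl-CoA dehydrogenase gene, had 23, 49.9 and 45.8 against 12.4, 13.8 and 13.2 CPM. All of these are stable genes.

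*T04A11.1* and *T04A11.4*, which lie within 10 kb of each other on chromosome IV and were also chosen after their values were seen, were higher in the mutant. *T04A11.1* had 11.25, 6.49 and 8.79 CPM in N2 and 39, 40.7 and 37.2 CPM in *old-1(ok1273)* (log2 fold change 2.13, standard error 0.19, adjusted p = 8.05e-07). *T04A11.4* had 2.23, 1.32 and 3.02 against 11.09, 10.3 and 12.802 CPM. Scaled to library total, *T04A11.1* was at 13.4 ± 2.22 CPM in *old-1p::old-1* animals and 29.2 ± 6.63 CPM in their siblings, and *T04A11.4* at 3.35 ± 1.42 and 9.89 ± 2.21 CPM (SD, n = 3 each), with no overlap. Whether kallisto divided reads between similar copies there was not tested. *old-1* itself was at 51.2 ± 9 and 0.716 ± 0.227 CPM in these groups, the latter near the 0.920 ± 0.182 CPM of untreated *old-1(ok1273)*. Like *old-1(ok1273)*, the libraries labelled as siblings had no counts of *C56A3.5*, *C56A3.4* and *Y102A5C.36* and a high *frm-5.2* (40.5 ± 10.6 CPM), which goes against N2 in their label, whereas *haf-6*, *srw-85* and *M199.2* were at 37.2 ± 4.09, 27.5 ± 12 and 5.63 ± 0.644 CPM, unlike *old-1(ok1273)*. Which alleles of *old-1* the next counts compare is therefore uncertain. Of the 159 stable genes higher in *old-1(ok1273)* under both length corrections, 44 (27.7%) had *old-1p::old-1* levels below those of all siblings, beside 9.95% of all genes tested, and 23 (14.5%) had them above, beside 16.5%. Of the 193 lower genes, 22 were above all siblings, a smaller share than the 16.5% of all genes tested. A further 9 (4.66%) were below, beside 9.95% of all genes tested. These libraries share none with the untreated comparison, and the counts are descriptions.

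The 10 genes with the largest rise among those called, with at least 1 CPM in the mutant and no overlap, were *frm-5.2*, *D1007.8*, *C55A1.6*, *fipr-22*, *fipr-24*, *C37A5.3*, *C01G10.17*, *C01G10.5*, *F46A8.7* and *C54G4.7*. *fipr-22*, *fipr-24* and *C37A5.3* lie next to each other on chromosome I (14154769 to 14158078), and the *fipr* genes are named for their relation to fungus-induced peptides. *fipr-24* had 5.2, 6.41 and 6.94 CPM in *old-1(ok1273)* against 0.77, 0.605 and 0.314 CPM in N2 (log2 fold change 3.45, standard error 0.48, adjusted p = 5.87e-05), *fipr-22* had 4.43, 4.91 and 5.46 against 1, 0.55 and 0.314 CPM, and *C37A5.3* had 2.24, 2.47 and 3.22 against 0.578, 0.385 and 0.0393. With extract none of these 3 differed by the call. *C01G10.5* and *C01G10.17*, close together on chromosome V, were higher with extract too and are stable. *C01G10.5* had 11.37, 8.47 and 11.5 CPM against 3.2, 1.1 and 1.3 without extract and 3.21, 4.44 and 3.54 against 1.22, 1.81 and 1.2 with it. *C54G4.7*, which overlaps 3 genes including *cyc-1*, had 16.4, 17.7 and 19.7 against 3.12, 4.07 and 2.51 CPM, and was not called with extract. *D1007.8* stayed under 2 CPM, at 0.73, 0.525 and 1.84 against 0.154, 0 and 0, and was not called without N2 replicates B and C.

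The 10 genes with the largest fall among those called, with at least 1 CPM in N2 and no overlap, which leaves out *vit-5* and *vit-3*, were *C56A3.5*, *C56A3.4*, *coq-8*, *col-19*, *col-7*, *F53H4.2*, *F55B11.2*, *Y45F10C.4*, *K09H11.4* and *C35B1.4*. Apart from the first 3, all 7 were under 0.4 CPM in N2 replicate A as well. *F53H4.2* had 0.077, 28 and 41.1 CPM in N2, *F55B11.2* had 0.0385, 11.8 and 24.3, *Y45F10C.4* had 0.0385, 11.39 and 22, *K09H11.4* had 0.308, 9.14 and 12.2 and *C35B1.4* had 0.154, 6.82 and 13. All 5 had no counts in *old-1(ok1273)*.

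Genes of yolk and oocytes were lower in *old-1(ok1273)* than in N2 replicates B and C, and nearer to replicate A. All 6 *vit* genes were called lower, with a median log2 fold change of -8.30, beside -0.03 over all genes. *vit-6* had 4.16, 541 and 1075 CPM in N2 and 1.05, 1.5 and 1.75 CPM in the mutant (log2 fold change -8.55, standard error 1.28, adjusted p = 0.00011), and *vit-5* had 0, 93.5 and 196 CPM in N2 and none in the mutant. Without B and C, 3 were still called lower, *vit-1*, *vit-2* and *vit-6*, at -0.65, -1.68 and -1.53, and *vit-3* and *vit-4* gave 0.80 and -0.09 and did not pass. With extract none of the 6 was called. Their transcripts are long, 4870 to 5088 bases. With the length correction the median log2 fold change was -7.96, and -0.06 with B and C also left out.

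Of 20 oocyte and eggshell genes, 15 were called lower and none higher, and without N2 replicates B and C 1 was called lower and 1 higher. *rme-2*, the yolk receptor of oocytes, had 9.71, 30.5 and 36 CPM in N2 and 8.54, 6.97 and 6.94 CPM in *old-1(ok1273)*. *perm-4*, an eggshell gene, had 0.693, 67.4 and 105 against 0.228, 0.075 and 0.0448 CPM, and *cpg-1*, an eggshell proteoglycan gene, 9.78, 31.6 and 36.3 against 6.03, 7.27 and 7.48 CPM. *chs-1*, the chitin synthase of the eggshell, had 13.5, 23.6 and 23.1 against 10.9, 8.92 and 9.18 CPM. Its log2 fold change without B and C was -0.49. The *chs-1* transcript is long, 4227 bases. With the length correction its value was -0.71, and -0.03 with B and C also left out. For the 20 genes the length-corrected median was -0.88, and 0.02 with B and C also left out.

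The sperm genes changed direction with the N2 library they were compared with. Of 29 tested major sperm protein genes, which encode the motility and signalling protein of nematode sperm, 24 were called lower and none higher, and the median log2 fold change was -1.92. Their summed level was 90.1, 1314 and 1832 CPM in N2 replicates A, B and C and 297, 280 and 283.9 CPM in *old-1(ok1273)*. The mutant thus lay between N2 replicate A and the other 2, and the groups overlapped for each of the 29 genes. Without B and C, 28 of 30 were called higher and none lower, with a median of 1.69, and with the yolk covariate 28 of 29 were higher. With extract the sum was 156, 142 and 112 CPM in N2 and 272, 299 and 394 CPM in the mutant, with a median of 1.26 and no gene called. *msp-3* had 2.35, 32.1 and 47.5 CPM in N2 and 5.57, 6.26 and 6.94 in the mutant, with a log2 fold change of -2.12 that became 1.41 without B and C. Near-identical *msp* genes share reads, so single members are uncertain. Of 60 other sperm genes, 41 were called lower and 1 higher, against 31 higher and 2 lower without B and C. *spe-9*, needed for fertilisation, had 1.89, 5.94 and 7.58 against 1.87, 1.16 and 1.34 CPM, and *spe-41*, a sperm channel gene, 7.43, 22.7 and 27.3 against 6.85, 8.02 and 5.95.

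**Figure D4:**
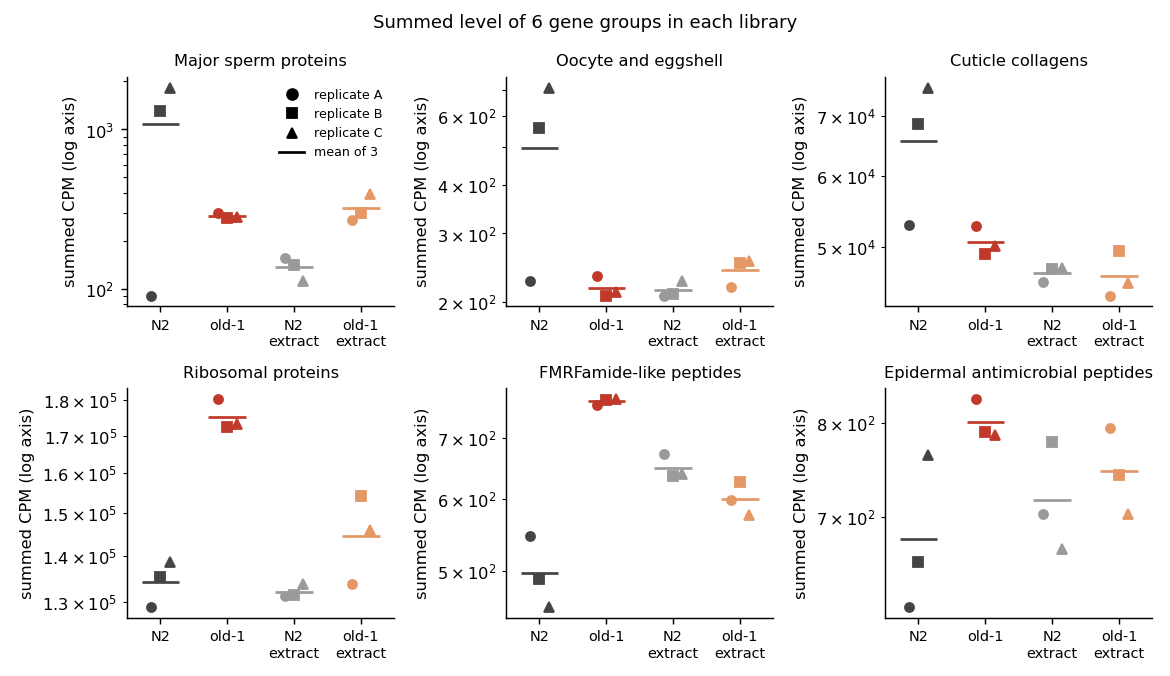
Summed CPM of 6 gene groups (vertical axes, log scale) in each library of untreated and extract-treated N2 and *old-1(ok1273)*, with symbols for replicates and a line for the mean of 3. N2 replicates B and C are apart from A in the sperm, oocyte and collagen groups, while ribosomal protein and FMRFamide-like peptide genes are higher in all 3 untreated *old-1(ok1273)* libraries than in all 3 of N2.

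Among germline regulators the groups did not overlap for 17 of 31 genes, all lower in *old-1(ok1273)*. Over all genes tested, 3541 of 16850 had the mutant below N2 without overlap. The summed level of the germline regulators was 2629, 3526 and 3952 CPM in N2 and 2394, 2314 and 2357 CPM in the mutant. Of 31 germline genes, 21 were called lower and none higher, and 10 lower and 3 higher without N2 replicates B and C. *glp-1*, the Notch receptor that keeps germ cells dividing, had 56.7, 59.8 and 54.8 CPM in N2 and 24, 21.9 and 21 CPM in *old-1(ok1273)* (log2 fold change -1.36, standard error 0.07, adjusted p = 1.14e-08). *gld-2*, a cytoplasmic poly(A) polymerase gene, had 115, 129 and 142 against 71.4, 69.6 and 69.1 CPM (log2 fold change -0.88, standard error 0.06, adjusted p = 8.71e-08), and *rec-8*, a meiotic cohesin gene, 39.1, 44.5 and 45.1 against 23.5, 21.3 and 23.1 CPM. With extract these 3 were not called, at log2 fold changes of 0.00, -0.04 and 0.03. Their transcripts are long, 4326, 4173 and 2587 bases, and with the length correction the untreated values were -0.99, -0.53 and -0.72, all still called. With the correction over the list 11 genes were called lower and 1 higher, and without B and C as well the balance turned, with 4 lower, 9 higher and a median of 0.11.

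Among cuticle collagens, 76 of 153 were called lower and 11 higher, and the median log2 fold change was -0.59. Without N2 replicates B and C the counts were 37 of 162 lower and 12 higher, with a median of -0.14. The adult collagen *col-19* had 0.231, 127 and 271 CPM in N2 and 0, 0.075 and 0.0448 CPM in *old-1(ok1273)*, and *col-7* had 0.116, 36.2 and 77.1 against 0, 0.0375 and 0 CPM. *bli-1* and *bli-2*, which form the struts of the adult cuticle, were also lower against N2 replicate A alone. *bli-1* had 41.6, 401 and 480 CPM in N2 and 13.4, 10.8 and 10.9 CPM in the mutant (log2 fold change -4.72, standard error 0.62, adjusted p = 3.54e-05), and -1.84 without B and C. *bli-2* had 44.4, 512 and 567 against 25, 19.8 and 18.9 CPM, and *col-38* 61.7, 2040 and 2340 against 17.5, 12.4 and 10.9 CPM. With extract none of these 5 was called, and *col-73*, at 1434, 2942 and 3049 CPM in N2 and 926, 844 and 845 in the mutant, was not called there either.

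Of the 6 furrow collagens, which form the circumferential furrows of the cuticle, *dpy-9*, *dpy-2*, *dpy-3* and *dpy-7* were called higher. *dpy-9* had 383, 360 and 385 CPM in *old-1(ok1273)* against 267, 194 and 145 CPM in N2 (log2 fold change 0.90, standard error 0.14, adjusted p = 0.000181), and *dpy-2* had 419, 430 and 424 against 334, 227 and 160 CPM. In N2 both were highest in replicate A. Without B and C only *dpy-9* and *dpy-2* were called, at 0.49 and 0.34.

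Among genes of the molt, the counts over the list were close to those over all genes only with all 3 N2 libraries and no length correction. Of 19 molting cycle genes 4 were called lower (21.1%, beside 23.3% of all genes) and 3 higher (15.8%, beside 15.7%), and 9 lower and 1 higher without N2 replicates B and C. *mlt-10*, which is switched on at each molt, had 502, 628 and 451 CPM in N2 and 288, 301 and 290 CPM in *old-1(ok1273)* (log2 fold change -0.85, standard error 0.11, adjusted p = 4.58e-05), and with extract 574, 491 and 587 against 419, 336 and 374 CPM. *bed-3*, a transcription factor gene needed for molting, had 87.5, 92.4 and 63.5 against 39.6, 45.5 and 44.9 CPM (log2 fold change -0.90, standard error 0.14, adjusted p = 0.000128). *chs-2*, the chitin synthase of the pharynx, had 79.9, 69.7 and 53 against 34.2, 34 and 35.5 CPM (log2 fold change -0.96, standard error 0.14, adjusted p = 0.000106). *lin-29*, the zinc-finger gene that drives the larva-to-adult switch in the epidermis, had 67.4, 51.6 and 49.2 against 32.4, 30.1 and 33.2 CPM (log2 fold change -0.81, standard error 0.10, adjusted p = 2.45e-05), and with extract 0.04, not called. Patched-related genes were lower in 12 and higher in 3 of 26, and lower in 16 and higher in 2 without B and C. *ptr-2* had 65.7, 67.5 and 61.7 against 46.5, 45.1 and 44.2 CPM and *ptc-1* 181, 181 and 184 against 139, 135 and 132 CPM, both called lower with extract too. The transcripts of *ptr-2* and *ptc-1* are 2936 and 5069 bases long. With the length correction 8 of the 19 molting cycle genes were called higher and 3 lower, beside 16.4% and 18.1% of all genes. Their median log2 fold change was then 0.09, and -0.07 with B and C also left out. With the length correction 5 patched-related genes were called lower and 7 higher. *ptc-1* gave -0.02 and lost its call, while *mlt-10*, *bed-3*, *chs-2*, *lin-29* and *ptr-2* kept theirs.

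Ribosomal protein genes were higher in the mutant, with no overlap between the groups for 78 of 81. Over all genes tested, 22.1% had the mutant above N2 without overlap. Of the 81 ribosomal protein genes, 72 were called higher and none lower, beside 15.7% and 23.3% of all genes. Their median log2 fold change was 0.44. Their summed level was 128870, 135250 and 138550 CPM in N2 and 180350, 172270 and 173250 CPM in *old-1(ok1273)*. *rpl-22* had 2167, 2093 and 2095 CPM in the mutant and 1437, 1485 and 1495 CPM in N2 (log2 fold change 0.52, standard error 0.04, adjusted p = 5.48e-07), *rps-9* 3504, 3274 and 3322 against 2273, 2327 and 2415, and *rpl-25.1* 760, 726 and 730 against 467, 433 and 425. Without N2 replicates B and C 69 were called higher, with the length correction 58, and with both 52, none lower in any of these. With extract 13 were called higher and the median was 0.14. The 12 mitochondrially encoded genes gave 8 called higher and none lower, with a median of 0.44, 2 higher without B and C and 5 higher with the length correction. With extract none of them was called higher and 4 lower, with a median of -0.29.

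FMRFamide-like peptide genes, which encode neuropeptides, were higher in 25 of 30 and lower in none, and their median log2 fold change was 0.62. Without N2 replicates B and C 20 were called higher, with the length correction 24 higher and 1 lower, and with both 11 higher. *flp-15* had 26.9, 26.9 and 26.2 CPM in *old-1(ok1273)* against 14.4, 15.8 and 12.13 CPM in N2 (log2 fold change 0.92, standard error 0.09, adjusted p = 3.42e-06). *flp-11*, a neuropeptide gene of a sleep-active neuron, had 52.9, 52.4 and 57.9 against 36.9, 33.9 and 31.2 CPM (log2 fold change 0.68, standard error 0.07, adjusted p = 4.35e-06). With extract 1 of 30 was called, lower. Of 30 insulin-like peptide genes, 13 were called higher and 2 lower. The counts were 5 of 34 higher without N2 replicates B and C, with the length correction 7 of 30 higher and 2 lower, and with both 2 of 34 higher. *ins-7* had 5.52, 5.7 and 4.66 against 2, 1.82 and 1.73 CPM (log2 fold change 1.51, standard error 0.18, adjusted p = 1.55e-05), and *ins-35* 17.9, 17.7 and 15.4 against 10.21, 6.27 and 5.97 CPM, both stable.

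Transthyretin-like genes, most of them secreted proteins, were higher in 25 and lower in 4 of 57, and higher in 33 with none lower without N2 replicates B and C. *ttr-29* had 12, 15.4 and 14.1 CPM in *old-1(ok1273)* against 6.2, 4.84 and 4.99 CPM in N2 (log2 fold change 1.37, standard error 0.15, adjusted p = 6.14e-06), *ttr-18* 191, 194 and 207 against 135, 127 and 149, and *ttr-28* 8.99, 10.6 and 9.67 against 5.05, 3.47 and 3.42. *ttr-23* had 14.5, 15.2 and 15.9 against 5.05, 2.81 and 1.65 CPM and was not called with extract. Their median transcript length was 577 bases, and with the length correction 18 were called higher and 8 lower, and with both 18 higher and none lower.

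Of 18 epidermal antimicrobial peptide genes, 8 were called higher and none lower, beside 15.7% and 23.3% of all genes. Their median log2 fold change was 0.475, and 0.43 without N2 replicates B and C. The median transcript length of these genes was 380 bases. With the length correction 7 were called higher and none lower, with a median of 0.29, and 0.27 with B and C also left out. With extract 3 were called higher and 1 lower, beside 6.22% and 10.9% of all genes. *nlp-31*, a gene for an antimicrobial peptide of the epidermis, had 69.5, 76.4 and 74.8 CPM in *old-1(ok1273)* against 42.4, 31.5 and 27.8 CPM in N2 (log2 fold change 1.116, standard error 0.12, adjusted p = 6.37e-06), and *cnc-8* 42.9, 45.2 and 45.8 against 23.1, 17.6 and 26.3 CPM. Neither was called with extract. The lysozyme genes *lys-7* and *lys-5* were higher. *lys-7* had 255, 253 and 257 against 131, 130 and 85.9 CPM (log2 fold change 1.14, standard error 0.15, adjusted p = 3.42e-05) and with extract 230, 323 and 273 against 153, 108 and 130 CPM, and *lys-5* had 12, 13.1 and 12.85 against 7.01, 5.06 and 7.46 CPM. Of 20 genes of the response to bacteria, 5 were called higher (25%, beside 15.7% of all genes) and 4 lower (20%, beside 23.3%). Of the higher ones, *sysm-1* had 7.44, 7.42 and 8.06 against 3.08, 3.19 and 2.32 CPM, *dod-22* 5.52, 6.67 and 8.64 against 2.66, 2.04 and 3.26 and *irg-2* 2.33, 1.95 and 2.82 against 0.809, 0.605 and 0.785. C-type lectin genes gave 15 called higher (9.09%, beside 15.7% of all genes) and 44 lower (26.7%, beside 23.3%) of 165. Their median log2 fold change was -0.23, and 0.02 without B and C.

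Stress and detoxification genes differed one by one. *gpdh-1*, the glycerol-3-phosphate dehydrogenase of the osmotic response, had 71.7, 64.5 and 64.9 CPM in *old-1(ok1273)* against 26.3, 26.5 and 24.5 CPM in N2 (log2 fold change 1.38, standard error 0.16, adjusted p = 1.02e-05), and was higher with extract too. *mtl-1*, a metallothionein gene, had 1.83, 1.5 and 1.52 against 0.231, 0.385 and 0.353 CPM, and *dod-3* 6.94, 8.55 and 8.55 against 2.89, 1.65 and 1.18 CPM. *dod-3* was lower in the mutant with extract, at 44.8, 40.6 and 29 against 107, 80.1 and 64.4 CPM. *fat-7*, a stearoyl-CoA desaturase gene, had 133, 186 and 209 CPM in N2 and 98.6, 109 and 107 in the mutant. Of 65 UDP-glucuronosyltransferase genes 26 were called higher and 5 lower, and 12 of 67 higher and 7 lower without N2 replicates B and C, with *ugt-41* at 39.4, 42.8 and 44 against 25.2, 22.3 and 22.6 CPM. Of 43 glutathione S-transferase genes 9 were higher and 2 lower, and 6 of 44 higher and none lower without B and C, with *gst-24* at 16.7, 19.9 and 15 against 10.4, 8.42 and 10.4 CPM. F-box A genes were called higher in 32 (22.1%, beside 15.7% of all genes) and lower in 8 (5.52%, beside 23.3%) of 145. Their median log2 fold change was 0.41, and 0.24 without B and C. With extract they were called lower in 40 (27.6%, beside 10.9% of all genes) and higher in 3 (2.07%, beside 6.22%).

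Markers of single tissues were present in both genotypes. Of 15 body wall muscle genes 8 were called lower (53.3%, beside 23.3% of all genes) and none higher, and the median log2 fold change was -0.25. Without N2 replicates B and C 6 were lower and none higher, with the length correction 6 lower and 2 higher, and with both 2 lower and 3 higher. *unc-22*, which encodes the giant protein twitchin, had 553, 414 and 368 CPM in N2 and 202, 186 and 192 CPM in *old-1(ok1273)* (log2 fold change -1.202, standard error 0.14, adjusted p = 9.25e-06). *unc-89*, another giant muscle protein gene, had 436, 356 and 343 against 201, 200 and 211 CPM, and *myo-3*, a myosin heavy chain gene, 608, 560 and 550 against 367, 360 and 368 CPM. None of these 3 was called with extract. Their transcripts, 21482, 18325 and 6109 bases, are among the long ones, and the length correction brought their log2 fold changes to -0.30, -0.06 and -0.18, with *unc-89* no longer called. Of 12 intestine markers 2 were called lower and 1 higher without B and C, and 3 lower with them, among these *ges-1*, the gut esterase, at 48.5, 45.5 and 42.6 against 68.6, 74.7 and 62.6 CPM. Of 16 neuron markers 9 were called higher and 1 lower, and 2 higher and 3 lower without N2 replicates B and C. Of 6 epidermis markers 1 was called higher and 2 lower, and 3 lower without B and C. Of 7 pharynx markers 2 were called higher and 3 lower, and 1 higher and 2 lower without B and C, with *tnc-2*, a troponin C gene, at 79.8, 75.4 and 80.1 against 59.8, 53.8 and 58.7 CPM. Summed levels over the 6 libraries were 620 to 736 CPM for the epidermis and 7153 to 7619 CPM for the intestine.

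**Figure D5:**
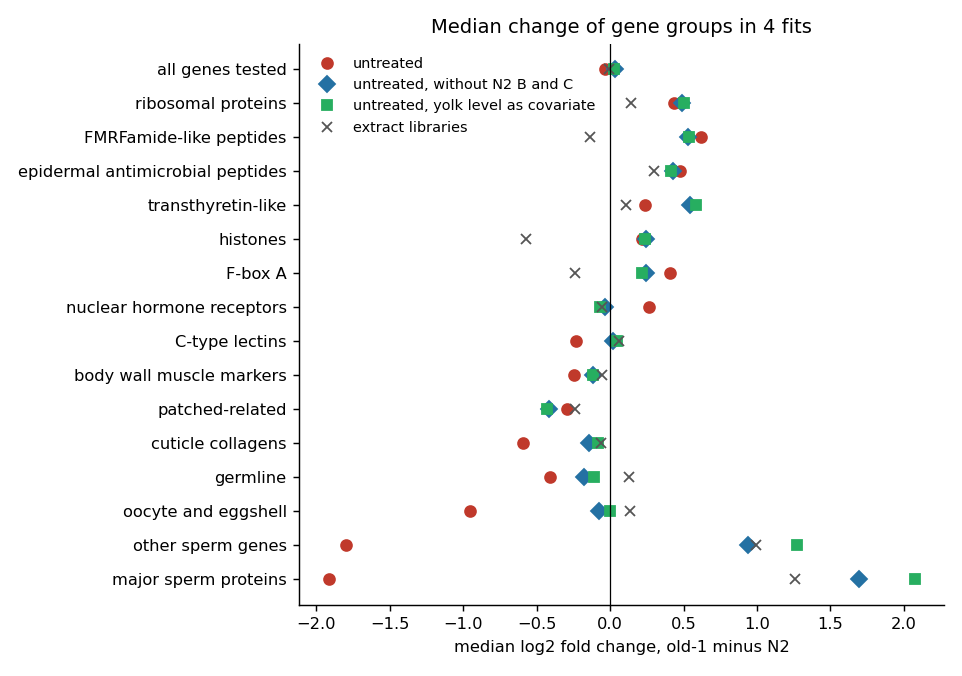
Median log2 fold change of *old-1(ok1273)* against N2 (horizontal axis) for 15 gene groups and all genes, in the untreated comparison, without N2 replicates B and C, with the yolk level as a covariate and in the extract libraries. Ribosomal protein genes stay above 0 in all 4, and the sperm groups move from -1.92 and -1.80 to above 0 when B and C are left out or the yolk level is fitted.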

How the data were processed

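RNA of synchronised L4 animals was extracted with TRIzol and sequenced by BGI and Novogene, and which library went where is not given in the sources used here. Per the study's methods, kallisto assigned reads to *C. elegans* transcripts of WormBase release WS283, and the authors deposited estimated counts per transcript, with transcript and effective lengths. From these, 37044 of 37058 transcripts were summed to 19988 genes with the Ensembl WBcel235 annotation, which also gave the coordinates, and rounded. IDs gave the gene of 30413 transcripts and sequence names that of 6631, while 2 fitted several genes and 12 none.

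Genes were kept with edgeR's filterByExpr (minimum count 5, total 15), scaled by TMM and tested with edgeR 4.0.16 (R 4.3.3) in a quasi-likelihood fit of 18 libraries in 6 groups (12 residual degrees of freedom), with no covariate. A gene was called at p under 0.01 and adjusted p under 0.1. CPM are on TMM-scaled library sizes unless said. DESeq2 1.42.0, limma 3.58.1 on TPM, other filters and scalings, a fit with the yolk level, a length offset per library and fits without single libraries were alternatives. A larger count carries less counting error, so genes under 1 CPM are the least precise. Only the main fit was tested on simulated data, drawn with the same spread for all genes. These data held neither the transcript-length pattern nor the split of the N2 libraries. Genes were named by rule (the KIN-16 family, study genes, up to 10 genes per direction by fold change, up to 4 per list by adjusted p, the yolk genes, genes without counts and called neighbours of *old-1*), and others are marked in the text. The comparison, its members and the gene lists were chosen with earlier results of these data known.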

Additional observations from a re-analysis of the deposited data

Results flagged for a closer look

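For 9 genes named above, *old-1(ok1273)* and N2 were called different in opposite directions without and with extract, and the difference between the 2 contrasts was itself called in the same edgeR fit. It is given here as the log2 fold change with extract minus that without. *chil-1* had -4.85 (adjusted p = 1.48e-05) and *chil-3* -5.32 (adjusted p = 3.14e-07). The *pals* genes gave -5.04 for *pals-1* (adjusted p = 4.16e-07) and -5.03 for *pals-6* (adjusted p = 8.03e-07). *K02E7.10* had -6.61 (adjusted p = 9.59e-12), *T20D4.7* -6.84 (adjusted p = 2.36e-09), *skr-3* -1.73 (adjusted p = 1.78e-09) and *dod-3* -3.19 (adjusted p = 2e-05). These 8 were higher in the mutant without extract and lower with it. Among them, *pals-6*, *skr-3* and *dod-3* lie outside the list of 50 ORR genes. *chil-1*, *chil-3*, *pals-1*, *K02E7.10* and *T20D4.7* are on that list, which was chosen partly on these samples. The choice favoured genes high in N2 with extract, so the sign and adjusted p of their differences are not independent evidence. *algn-8*, the neighbour of *old-1*, went the other way, at 0.73 (adjusted p = 0.000237). Of the 9, *chil-1*, *chil-3*, *pals-6*, *K02E7.10*, *T20D4.7* and *skr-3* were not called without N2 replicates B and C.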

How the results depend on the processing

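Of 126 genes named, 52 kept their direction and their side of the threshold under each alternative that gave a value. The count of 6577 genes called fell to 3562 (1757 higher, 1805 lower) with the 6 libraries alone, to 1951 (468 and 1483) when at least a 2-fold change was required, to 3603 (2365 and 1238) with the length correction and without N2 replicates B and C, and to 558 (202 and 356) for genes called the same way in the untreated, yolk, reduced and extract fits. Genes called lower fell to 2433 with the yolk covariate and to 2595 without N2 replicates B and C, and limma on log2(TPM + 1) called 1260 higher. Leaving out 1 library at a time gave 5138 to 8264 called, 1995 to 3562 higher and 3007 to 4702 lower. The highest count in each came without N2 replicate A. DESeq2 called 6984, other scalings and filters 6289 to 6622, and the length correction alone 5818. Whether same-lettered libraries were paired was checked by their deviations from the group mean, which correlated at -0.01 for all 3 letters. In N2 these deviations hold the split of replicate A from B and C, so the check could not exclude pairing. The replicate block gave 6265 called.

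Directions turned for 4 *msp* genes, with the yolk covariate, without N2 replicates B and C, and with the latter plus length correction: *msp-152* 1.91, 1.58 and 1.33, *msp-3* 1.81, 1.41 and 1.16, *msp-38* 1.26, 0.96 and 0.71, and *msp-64* 2.08, 1.66 and 1.41 (log2 fold changes). In the same order, *ZK938.1* gave 0.70, 0.31 and 0.32, and *chil-14* 0.98, 0.85 and 0.87. *dpy-7* gave -0.03 with the yolk covariate. *spe-41* gave 0.06 with it and 0.19 in the last fit, and *vit-4* 0.51 and 0.42. *vit-3* gave 0.80 without B and C and 1.28 with length correction added. The last fit also turned *ptc-1* to 0.10, *unc-15* to 0.09 and *vgln-1* to 0.40, which was 0.15 with length correction alone. The cause of each was not tested.

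The yolk covariate is set mainly by N2 replicate A against B and C, so these fits are not independent of each other. Whether the stage of N2 replicates B and C or another property of these libraries differed cannot be told apart, and the transcript-length pattern is confounded with the untreated mutant group. The lowest genes, under 1 CPM, rest on few counts.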

Other observations

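Values of lists not described above follow. Histone genes were called higher in 14 and lower in none of 67 in untreated *old-1(ok1273)*, and higher in none and lower in 37 of 67 with extract. Their median log2 fold change was 0.215, and 0.248 without N2 replicates B and C. The median transcript length of these genes was 384 bases. With the length correction 14 were called higher and 3 lower, with a median of 0.062. With B and C also left out the median was -0.002. Nuclear hormone receptor genes were called higher in 48 (21.5%) and lower in 18 (8.07%) of 223. Their median log2 fold change was 0.26, and -0.03 without N2 replicates B and C. Hedgehog-related genes, which in *C. elegans* encode secreted proteins of the epidermis, were called lower in 17 and higher in 7 of 50, and lower in 14 and higher in 4 of 52 without B and C. Genes of chitin synthesis, binding and breakdown were called lower in 9 of 11, in 6 of 11 without B and C and in 5 of 11 with extract, none higher in any of these. Subunits of the V-ATPase were called higher in 10 of 20, in 3 without B and C and in none with extract. Heat shock protein genes were called higher in 8 and lower in 2 of 24, and higher in 3 and lower in 2 without B and C. Beside the untreated counts with all 3 N2 libraries stand 15.7% of all genes called higher and 23.3% lower. Beside the counts with extract stand 6.22% higher and 10.9% lower. Counts without B and C belong beside the share of all genes called in that fit, which is given above.

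2 stable genes, chosen after their values were seen, were among the higher genes with the largest fold changes. *F23F12.12* had 69.5, 70.6 and 70.7 CPM in *old-1(ok1273)* replicates A, B and C and 19.8, 12.4 and 10.8 in N2 (log2 fold change 2.29, standard error 0.26, adjusted p = 9e-06), and *ttr-21* had 23.6, 26.9 and 26.4 against 10.1, 4.73 and 6.12 CPM (log2 fold change 1.86, standard error 0.25, adjusted p = 3.62e-05).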
